A study of Mus musculus with 28 samples.

Results

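The genes described here are 8 genes of mitochondrial fatty acid oxidation, ketone body metabolism and their regulation: Ppara, Cpt1a, Cpt2, Acadl, Acadm, Acat1, Bdh1 and Pdk4. They were chosen by name and make up 8 of the 54354 genes in the count table, and each was found there once. The study sequenced RNA in 28 libraries from small intestine of mice of the Lgr5-GFP genotype, a strain in which green fluorescence follows the activity of Lgr5, a receptor gene of crypt stem cells. Cells high and cells low for Lgr5 were taken from animals given a control diet or fed cystine, the disulfide formed by a pair of cysteine molecules, which gave 4 groups of 7 libraries: Lgr5-high control, Lgr5-high cystine, Lgr5-low control and Lgr5-low cystine. All groups share the reporter. The labels give no age, sex, diet composition or duration of feeding, and they disagree on the material: RNA came from organoids by the extraction protocol, and from cell populations of the small intestine by the design text. Whether each library stands for 1 animal is not stated, so a p-value here speaks of the spread from library to library, which may be partly technical. In these bulk samples, fewer cells of a type and less RNA per cell cannot be told apart.

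Fatty acids are burned in mitochondria by beta-oxidation. Long-chain fatty acids are loaded onto carnitine by Cpt1a in the outer membrane, released again as acyl-CoA by Cpt2 in the inner membrane, and shortened in a repeating cycle whose first step is carried out by acyl-CoA dehydrogenases such as Acadl and Acadm. The acetyl-CoA that results can be burned in the citric acid cycle or turned into ketone bodies by a short pathway that begins with Acat1 and ends with Bdh1. The nuclear receptor PPARα, encoded by Ppara, switches on many of these genes during fasting or high fat intake, and in the intestinal crypt both fatty acid oxidation and ketone bodies are known for their part in stem cell maintenance.

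Depth ranged from 2.75 to 21.5 M (mega) counts per library, with group medians of 15.4 M in Lgr5-high control, 5.32 M in Lgr5-high cystine, 7.30 M in Lgr5-low control and 14.8 M in Lgr5-low cystine libraries. Lgr5 followed the sort, at 21.5 to 45.1 and 16.2 to 35.2 CPM in the Lgr5-high control and cystine groups against 0.214 to 10.03 and 2.70 to 10.9 CPM in the Lgr5-low groups. CPM are counts scaled to a common library total with TMM factors. Several members are strongly expressed in liver, and transcripts of hepatocyte markers were present in every library. In the Lgr5-high control and cystine groups the summed level of 10 hepatocyte markers was 1049 to 1725 and 995 to 1545 CPM. In the Lgr5-low groups it was 678 to 1502.5 and 657 to 1603 CPM, with all 10 markers detected in each group. Cps1 was the largest part of this sum in every library, at 396 to 1000 CPM, and Alb lay between 38.1 and 354 CPM. The sum is thus weighted toward 1 gene, and the cells it came from were not tested. The summed level of 12 enterocyte markers was 2110 to 15309 CPM in Lgr5-high and 5816 to 35372 CPM in Lgr5-low libraries. Macrophage markers summed to 11.5 to 508 CPM in Lgr5-high cystine libraries against 22.3 to 47.1 CPM in Lgr5-high control libraries, and smooth muscle and fibroblast markers to at most 8.28 CPM and adipocyte markers to at most 1.85 CPM in any library. The part of these cells in the members' levels was not tested.

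None of the 8 members passed the test in any of the 5 comparisons, which were the populations compared on either diet, the diets compared in either population, and the difference between the latter effects (edgeR's quasi-likelihood test, Benjamini-Hochberg adjustment over 12495 genes, threshold 0.05). All 8 members passed the filter on low counts. In the comparison of populations on control diet, 0 of 8 members were called, against 1.8% of all genes tested, and 0 of 8 had an unadjusted p under 0.05, against 12.86% of all genes. On cystine diet, 0 of 8 were called against 2.64% of all genes, and 1 of 8, Acadl, had an unadjusted p under 0.05, against 15.53% of all genes. For diet in Lgr5-high cells, 0 of 8 were called against 0.168% of all genes, and 0 of 8 had an unadjusted p under 0.05 against 4.282%. For diet in Lgr5-low cells, 0 of 8 and 0% of all genes were called, and 1 of 8, again Acadl, had an unadjusted p under 0.05 against 2.969%. For the difference of the diet effects, 0 of 8 and 0% of all genes were called, and 0 of 8 had an unadjusted p under 0.05 against 3.321%. DESeq2 and limma-voom also called 0 of 8 members in each of the 5 comparisons. The 4 comparisons of groups share libraries with one another, so their values are given side by side.

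**Figure D1:**
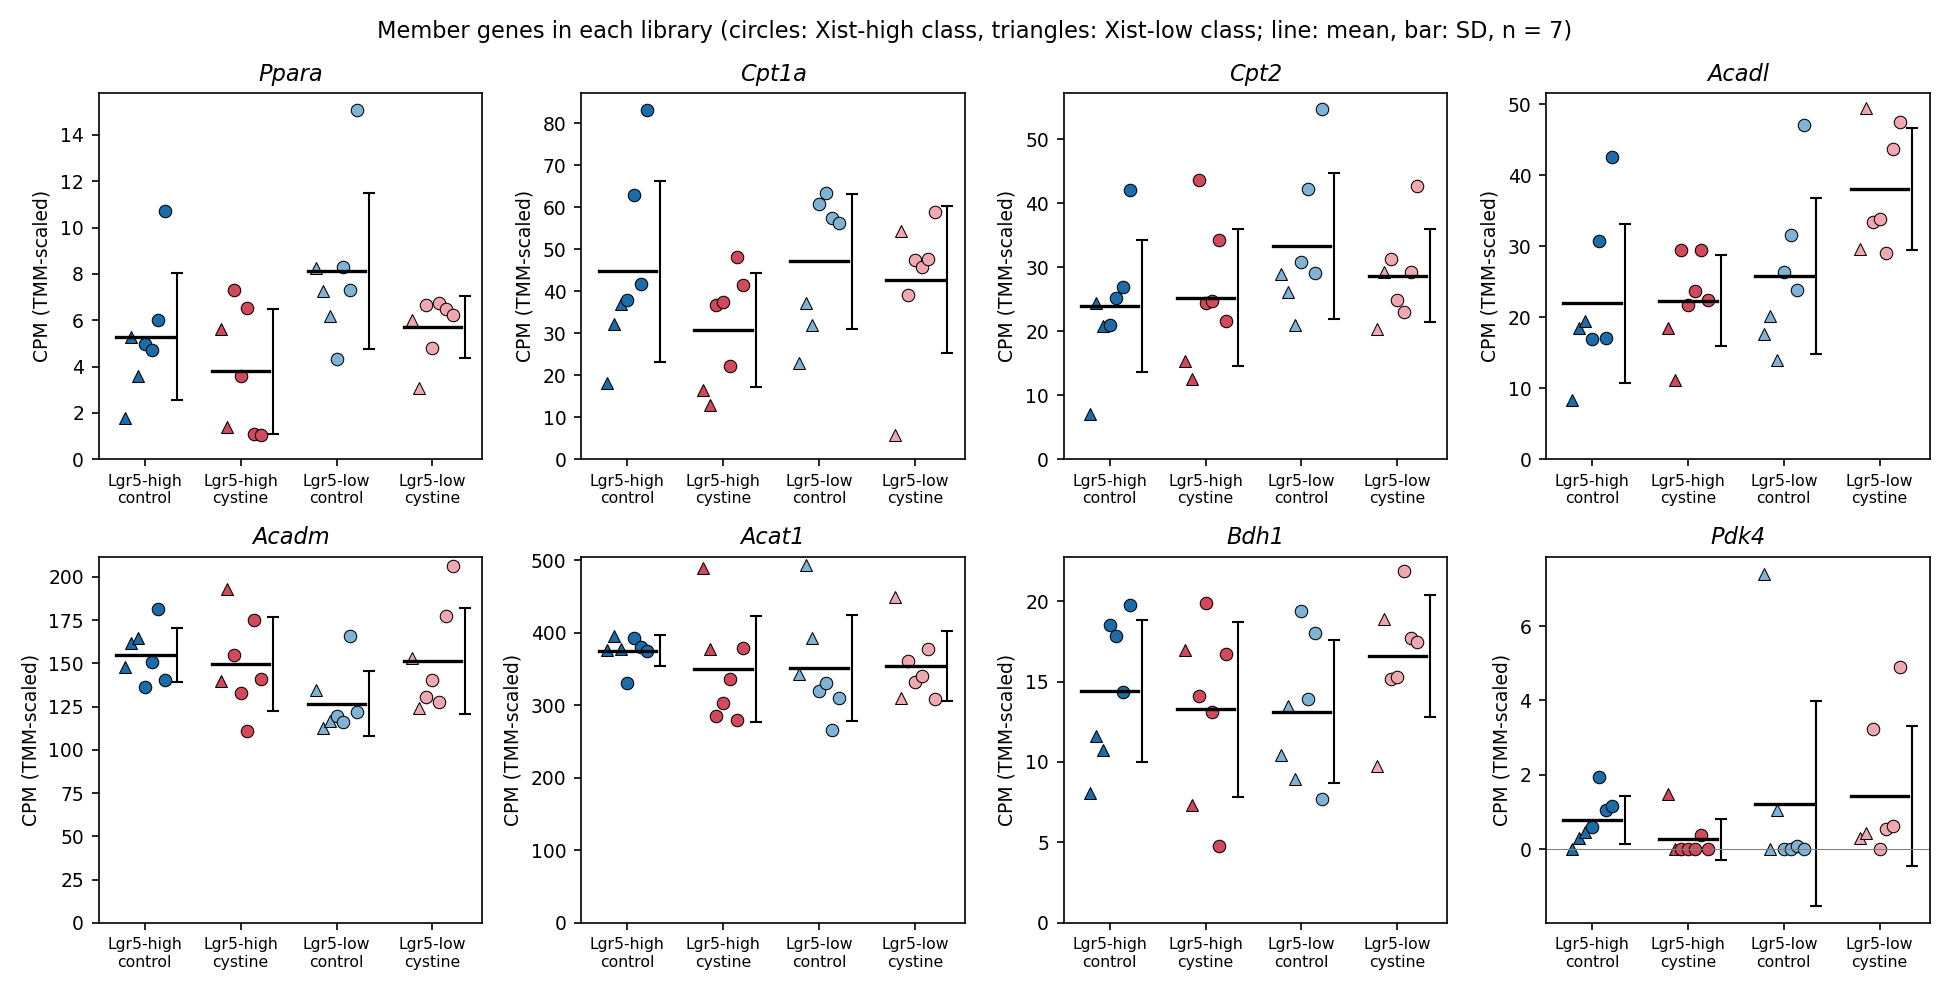
Level of each of the 8 members in every library, in CPM on a linear axis, by group. Circles are Xist-high and triangles Xist-low libraries and the bars show the mean and SD of 7 libraries. The ranges of neighbouring groups overlap for every member, and Acat1 sits between 266 and 493 CPM whereas Pdk4 does not exceed 7.42 CPM.

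Ppara, the regulator, was a gene of low level. Its lowest, median and highest values were 1.77, 4.98 and 10.7 CPM in Lgr5-high control libraries, 1.06, 3.61 and 7.31 CPM in Lgr5-high cystine libraries, 4.32, 7.31 and 15.1 CPM in Lgr5-low control libraries, and 3.07, 6.23 and 6.73 CPM in Lgr5-low cystine libraries. The lowest library held 3 counts of the gene, so counting error alone is large. All 4 groups overlapped, and the highest library was Lgr5-low control replicate 7, at 15.1 CPM against 8.29 CPM in the next of its group. The log2 fold change of Lgr5-high against Lgr5-low was -0.59 ± 0.44 on control diet (SE; 95% confidence interval -1.49 to 0.30, adjusted p = 0.646) and -0.56 ± 0.45 on cystine diet (-1.47 to 0.35, adjusted p = 0.624). For cystine against control it was -0.46 (-1.36 to 0.45) in Lgr5-high and -0.49 (-1.39 to 0.41) in Lgr5-low cells, both at an adjusted p of 1. The gene lies on chromosome 15 (GRCm38, 85734983 to 85802819, plus strand).

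Cpt1a, the rate-limiting gate of long-chain fatty acid entry, had its lowest, median and highest values at 18.2, 37.9 and 83.2 CPM in Lgr5-high control libraries and at 12.9, 36.8 and 48.2 CPM in Lgr5-high cystine libraries. In Lgr5-low cells the values were 22.9, 56.2 and 63.4 CPM on control diet and 5.74, 47.5 and 58.9 CPM on cystine diet. The spread within a group was wide: Lgr5-low cystine replicate 1 stood at 5.74 CPM, from 20 counts, and the other 6 libraries of its group at 39.1 to 58.9 CPM. Lgr5-high against Lgr5-low gave a log2 fold change of -0.074 ± 0.34 on control diet (-0.76 to 0.62, adjusted p = 0.968), whose sign turned when Lgr5-high control replicate 1 was left out (0.043), and of -0.48 ± 0.34 on cystine diet (-1.18 to 0.22, adjusted p = 0.567). For diet it was -0.55 (-1.25 to 0.15) in Lgr5-high and -0.14 (-0.83 to 0.55) in Lgr5-low cells, both at an adjusted p of 1. In Lgr5-low cells the sign for diet turned (0.053) without cystine replicate 1. The gene lies on chromosome 19 (3322334 to 3385733, plus strand).

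Cpt2, which completes the carnitine shuttle on the inner membrane, ran from 7.07 over a median of 24.4 to 42.1 CPM in Lgr5-high control libraries and from 12.6 over 24.4 to 43.6 CPM in Lgr5-high cystine libraries. In Lgr5-low cells it ran from 21.0 over 29.1 to 54.7 CPM on control diet and from 20.4 over 29.3 to 42.6 CPM on cystine diet. The lowest library was Lgr5-high control replicate 1 and the highest Lgr5-low control replicate 7, and all groups overlapped. The log2 fold changes of Lgr5-high against Lgr5-low were -0.46 ± 0.28 on control diet (-1.02 to 0.09, adjusted p = 0.517) and -0.19 ± 0.28 on cystine diet (-0.76 to 0.37, adjusted p = 0.824). For diet they were 0.063 (-0.50 to 0.62) in Lgr5-high and -0.21 (-0.77 to 0.35) in Lgr5-low cells, both at an adjusted p of 1. The first of these changed sign (-0.11) without Lgr5-high cystine replicate 3. The gene lies on chromosome 4 (107903981 to 107923610, minus strand).

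Acadl, the long-chain acyl-CoA dehydrogenase, had the lowest unadjusted p of the members between populations on cystine diet. Pdk4 had a larger fitted log2 fold change there, at -2.23 against -0.77 for Acadl. In Lgr5-low cystine libraries the lowest, median and highest values of Acadl were 29.1, 33.9 and 49.5 CPM. In Lgr5-high cystine libraries they were 11.2, 22.5 and 29.5 CPM, in Lgr5-low control libraries 13.9, 23.9 and 47.0 CPM, and in Lgr5-high control libraries 8.34, 18.6 and 42.6 CPM. On cystine diet 5 of 7 Lgr5-high libraries lay below every Lgr5-low library, and all 7 lay below the Lgr5-low median. The log2 fold change was -0.77 ± 0.28 (SE; -1.33 to -0.21, unadjusted p = 0.00833, adjusted p = 0.135), so that the difference did not pass the adjusted test. A term for the Xist class of a library, described further down, moved it past the threshold, at -0.83 ± 0.24 with an adjusted p of 0.0379. On control diet the same comparison gave -0.22 ± 0.27 (-0.78 to 0.33, adjusted p = 0.815).

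For diet, all 7 Lgr5-low cystine libraries had more Acadl than the median Lgr5-low control library, and 2 of 7 lay above every control library. The log2 fold change was 0.57 ± 0.27 (0.01 to 1.12, unadjusted p = 0.0462, adjusted p = 1). In Lgr5-high cells it was 0.017 ± 0.28 (-0.54 to 0.58, adjusted p = 1), and it changed sign (-0.11) without Lgr5-high control replicate 1. The difference between these diet effects was -0.55 ± 0.39 (-1.34 to 0.24, adjusted p = 1). Acadl lies on chromosome 1 (66830839 to 66863277, minus strand) and overlaps the predicted gene Gm15793 on the same strand and Gm27934 on the other, so its estimated counts depend on how reads were divided.

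Acadm, the medium-chain acyl-CoA dehydrogenase, varied far less from library to library. Its lowest, median and highest values were 137, 151 and 181 CPM in Lgr5-high control, 111, 141 and 193 CPM in Lgr5-high cystine, 113, 119 and 166 CPM in Lgr5-low control and 124, 140.3 and 207 CPM in Lgr5-low cystine libraries. On control diet all 7 Lgr5-high libraries lay above the Lgr5-low median, but Lgr5-low replicate 6, at 166 CPM, reached into their range. The log2 fold change there was 0.29 ± 0.15 (-0.01 to 0.59, adjusted p = 0.417), and on cystine diet it was -0.019 ± 0.15 (-0.32 to 0.28, adjusted p = 0.979), with a sign that turned (0.069) without Lgr5-low cystine replicate 7. For diet, all 7 Lgr5-low cystine libraries exceeded the Lgr5-low control median, with a log2 fold change of 0.26 ± 0.15 (-0.04 to 0.55, adjusted p = 1), and in Lgr5-high cells it was -0.051 ± 0.15 (-0.35 to 0.25, adjusted p = 1). The difference between the diet effects was -0.31 ± 0.21 (-0.73 to 0.11, adjusted p = 1). Acadm lies on chromosome 3 (153922357 to 153944632, minus strand).

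Acat1, the mitochondrial thiolase that makes acetoacetyl-CoA for ketone bodies and splits it again when they are used, was the most abundant member. Its lowest, median and highest values were 330.0, 378 and 396 CPM in Lgr5-high control, 279.9, 336 and 488 CPM in Lgr5-high cystine, 266, 331 and 493 CPM in Lgr5-low control and 308, 339 and 449 CPM in Lgr5-low cystine libraries. The groups overlapped throughout, and 6 of 7 Lgr5-high control libraries fell between 374 and 396 CPM. The 4 fold changes between groups were all small, from -0.10 for diet in Lgr5-high cells (-0.40 to 0.20) to 0.10 for the populations on control diet (-0.20 to 0.40), with adjusted p-values of 1 and 0.858. Those intervals leave room for differences of up to 0.40 on the log2 scale. Across the 7 libraries of a group the coefficient of variation was 5.76% to 21.0% for Acat1 and 10.04% to 20.2% for Acadm. The median over genes of at least 5 CPM, a set not matched to them in level, was 30.0% to 42.6%. Acat1 lies on chromosome 9 (53580522 to 53610382, minus strand).

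Bdh1, the dehydrogenase that interconverts acetoacetate and beta-hydroxybutyrate, ran from 8.09 over a median of 14.3 to 19.8 CPM in Lgr5-high control and from 4.78 over 14.1 to 19.9 CPM in Lgr5-high cystine libraries. In Lgr5-low cells it ran from 7.69 over 13.5 to 19.4 CPM on control diet and from 9.75 over 17.4 to 21.9 CPM on cystine diet. No group stood apart. The log2 fold changes of Lgr5-high against Lgr5-low were 0.13 ± 0.29 on control diet (-0.46 to 0.72, adjusted p = 0.919) and -0.31 ± 0.29 on cystine diet (-0.90 to 0.28, adjusted p = 0.698). For diet they were -0.11 (-0.70 to 0.48) in Lgr5-high and 0.33 (-0.26 to 0.92) in Lgr5-low cells, both at an adjusted p of 1. The first changed sign (0.040) without Lgr5-high cystine replicate 6, the shallowest library. Bdh1 lies on chromosome 16 (31422280 to 31458901, plus strand) and overlaps the predicted gene Gm15743 on the other strand.

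Pdk4, a kinase that shuts the pyruvate dehydrogenase complex and so spares glucose when fat is burned, was near the limit of detection. It was at 0 in 11 of 28 libraries and at 1 CPM or more in 8, with a median of 2 counts per library. The highest library of each group held 1.95 CPM in Lgr5-high control, 1.49 CPM in Lgr5-high cystine, 7.42 CPM in Lgr5-low control and 4.91 CPM in Lgr5-low cystine cells. The medians were 0.603, 0, 0 and 0.537 CPM in the same order. Its log2 fold changes carried standard errors above 1: -0.59 ± 1.26 and -2.23 ± 1.35 for Lgr5-high against Lgr5-low on control and cystine diet (adjusted p = 0.914 and 0.453). The sign of the first turned (2.04) without Lgr5-low control replicate 1, the library at 7.42 CPM. For diet in Lgr5-low cells the log2 fold change of 0.26 ± 1.26 rested on the same library, being 2.90 without it. Pdk4 lies on chromosome 6 (5483351 to 5496309, minus strand).

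**Figure D2:**
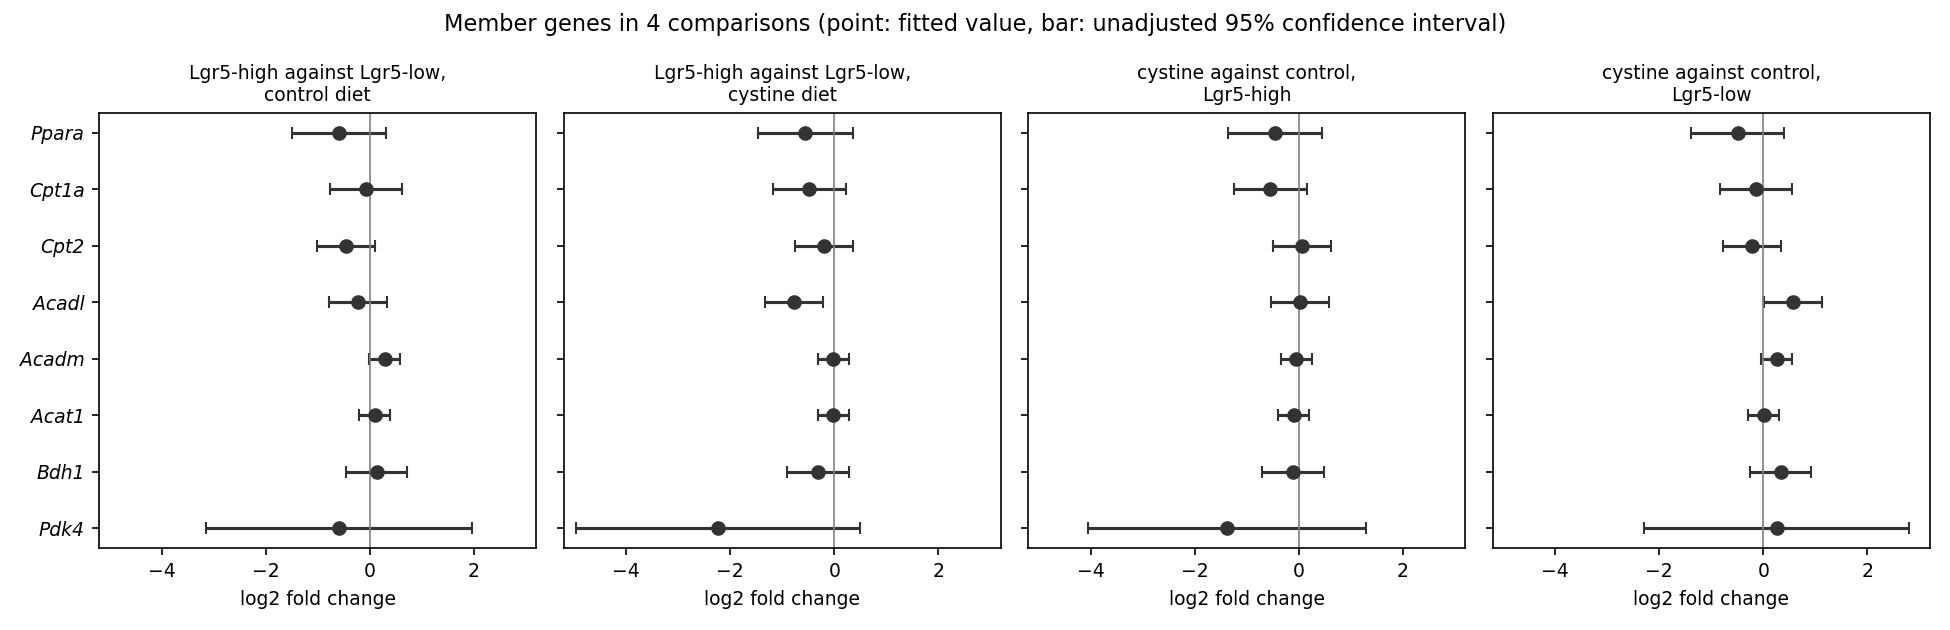
Fitted log2 fold change of the 8 members in the 4 comparisons of groups, each from 7 against 7 libraries. Points are the fitted values and bars are unadjusted 95% confidence intervals. The interval leaves 0 for Acadl alone, at -1.33 to -0.21 between populations on cystine diet and at 0.01 to 1.12 for diet in Lgr5-low cells, and neither difference passed the adjusted test.

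Read as levels per kilobase of exon, which allows genes to be set beside each other, the members kept nearly the same order in all groups. Acat1 led at 93.0 to 99.8 CPM per kilobase (means of the 4 groups), followed by Acadm at 32.4 to 39.5. Acadl and Cpt2 lay close together, at 10.95 to 19.0 and 10.01 to 13.9 CPM per kilobase. Cpt1a followed at 4.03 to 6.17, Bdh1 at 3.37 to 4.26 and Ppara at 0.992 to 2.11, and Pdk4 closed the order at 0.0754 to 0.408 CPM per kilobase. Within each member, the ranges of the groups that stood next to each other in level overlapped in 3 of 3 cases. For 7 members, all 3 steps between neighbouring group means were smaller than the larger SD, and for Acadl this held for 2 of 3 steps.

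The other genes of these pathways, taken from 8 lists of 89 genes of which 83 were tested, passed the test between the populations no more often than genes in general. On control diet 1 of 83 (1.2%) passed, against 1.8% of all genes, and it fell. A negative log2 fold change was fitted for 61 of 83 (73.5%), against 50.6% of all genes, with a median of -0.28 against -0.01. The gene that passed was Abcd3, a peroxisomal membrane transporter of fatty acids, at 40.1 ± 8.63 CPM (SD, n = 7) in Lgr5-high and 86.6 ± 40.4 CPM in Lgr5-low control cells. Its log2 fold change was -1.11 ± 0.24 (adjusted p = 0.00961). In the Xist-low class of libraries alone, described further down, it was -0.55 (adjusted p = 0.663). DESeq2 also called Cd36. By limma-voom, which called 800 of all genes against edgeR's 225, 4 pathway genes passed, of which 2 rose. On cystine diet 0 of 83 passed, against 2.64% of all genes, and 60 of 83 (72.3%) had a negative log2 fold change, against 52.8% of all genes, with a median of -0.27 against -0.04. Abcd3 stood at 41.5 ± 16.4 CPM in Lgr5-high and 64.6 ± 16.2 CPM in Lgr5-low cystine cells there, with a log2 fold change of -0.65 ± 0.24 (adjusted p = 0.15). It passed without Lgr5-high cystine replicate 6 (-0.86, adjusted p = 0.0387) and without the libraries under 5 M counts (-0.93, adjusted p = 0.0427). DESeq2 called 0 of 83 pathway genes on cystine diet. By limma-voom, which called 910 of all genes against edgeR's 330, 4 pathway genes passed. Of these, Abcd3, Etfb and Slc16a6 fell and Plin2 rose.

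By unadjusted p under 0.05, 11 of 83 pathway genes (13.3%) differed between the populations on control diet, against 12.86% of all genes, and 10 of 83 (12%) on cystine diet, against 15.53%. Among peroxisomal genes 8 of 10 had negative values on control diet and 10 of 10 on cystine diet, against 50.6% and 52.8% of all genes. The peroxisomal medians were -0.20 and -0.65, and Abcd3 on control diet was the single one that passed. The values on cystine diet reached up to -0.0092, that of Crot, the peroxisomal carnitine octanoyltransferase. Among the genes of mitochondrial beta-oxidation 9 of 15 and 8 of 15 were negative, with medians of -0.01 and -0.11, and 0 passed. The gene of lowest p in that list was Acadvl, the very long-chain acyl-CoA dehydrogenase, on control diet (-0.53 ± 0.19, adjusted p = 0.159) and Etfb, a subunit of the electron carrier of the dehydrogenases, on cystine diet (-0.44 ± 0.16, adjusted p = 0.136). In the other lists no gene passed either. The genes of lowest p on control diet were Crat, the carnitine acetyltransferase (-1.42, adjusted p = 0.218), Slc16a6, a monocarboxylate transporter (-1.27, adjusted p = 0.147), Cd36, a fatty acid transporter (-1.63, adjusted p = 0.0972), Rxra, the dimer partner of PPAR receptors (-1.06, adjusted p = 0.397), Pdp2, a pyruvate dehydrogenase phosphatase (-1.08, adjusted p = 0.129) and Mlycd, malonyl-CoA decarboxylase (-0.46, adjusted p = 0.836). On cystine diet they were Acsl5, an acyl-CoA synthetase (-0.72, adjusted p = 0.224), Hnf4a, a transcription factor of enterocytes and hepatocytes (-0.41, adjusted p = 0.199), Ucp2 (-0.48, adjusted p = 0.196), Dld, a subunit of the pyruvate dehydrogenase complex (-0.24, adjusted p = 0.461), Mlycd (-0.92, adjusted p = 0.561) and Slc16a6 (-1.04, adjusted p = 0.23). For diet, 0 of 83 pathway genes passed in either population under edgeR, DESeq2 or limma-voom. At an unadjusted p under 0.05 edgeR's counts were 1 of 83 in Lgr5-high and 0 of 83 in Lgr5-low cells. Marker sums of several cell types also differed between the populations. Those of 7 enteroendocrine markers did not overlap, at 64.5 to 229 CPM in Lgr5-high and 277 to 887 CPM in Lgr5-low libraries. Goblet cell markers, 7 in number, summed to 6988 to 19576 CPM in Lgr5-high and 17278 to 54159 CPM in Lgr5-low libraries, and the enterocyte sums given above overlapped more widely. The part of these cells in the pathway values was not tested.

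Much of the variation of the members lay between libraries of 1 group rather than between groups. It was shared most closely by Cpt1a, Cpt2 and Acadl, in part by Ppara and Bdh1, and not by the members as a whole. After the group means were removed, Cpt2 and Acadl rose and fell together across the 28 libraries with a Pearson r of 0.89, the highest of the 28 pairs of members, whose median r was 0.07 and lowest -0.56. This correlation describes libraries that share a fit, a scaling and in part a replicate number, and it is given without a p. It was 0.90 among the 14 Lgr5-high and 0.89 among the 14 Lgr5-low libraries, and 0.86 without replicate 7 of the control diet. Cpt1a varied with both, less closely, with an r of 0.69 with Acadl and of 0.67 with Cpt2. These values were 0.89 and 0.85 among Lgr5-high libraries and lower among Lgr5-low libraries, at 0.53 and 0.55. Acat1 ran the other way, with an r of -0.56 with Cpt1a, -0.46 with Cpt2 and -0.37 with Acadl.

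**Figure D3:**
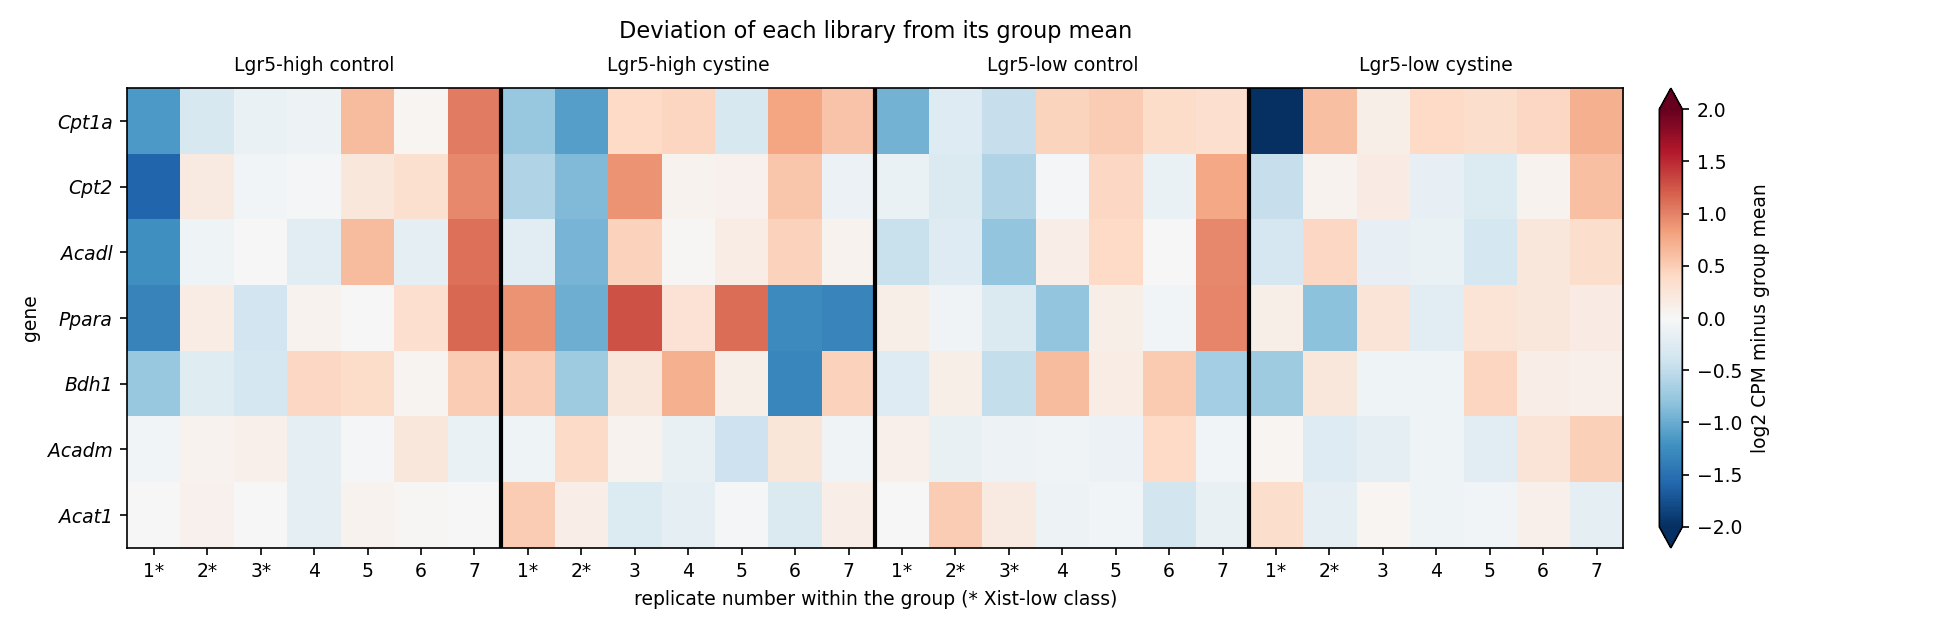
Deviation of log2 CPM from the group mean for 7 members (rows) in every library (columns, by group and replicate number), from blue for lower to red for higher. Cpt1a, Cpt2 and Acadl share their low library, replicate 1, among Lgr5-high control cells and their high library, replicate 7, whereas Acadm and Acat1 stay close to 0. Pdk4, at 0 in 11 of 28 libraries, is not drawn.

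The genes most like each member by the same measure, among tested genes of at least 5 CPM, were for Cpt2 the member Acadl and Rnf152 (r = 0.83), for Acadl the member Cpt2 and Ndrg1 (0.84), and for Cpt1a Ppp4r2 (0.86) and Myadm (0.86). For Acat1 they were Txndc12 (0.84) and Cnbp (0.84), for Acadm Dpp4 (0.76) and Selenop (0.70), for Bdh1 Akap13 (0.75) and Nrf1 (0.75), for Ppara Zc3h4 (0.71) and Srm (0.69), and for Pdk4 Pdrg1 (0.66) and Chchd3 (0.66). Cpt2 was thus the gene most like Acadl, and Acadl the gene most like Cpt2, among all genes so compared. Bdh1 deviated with the depth of the library (r = 0.73 with log2 total counts) and against the macrophage and enterocyte marker sums (r = -0.53 and -0.50). Acat1 deviated with the hepatocyte marker sum, of which Cps1 is the largest part (r = 0.54), and Acadm with the enterocyte sum (r = 0.43). For Cpt1a, Cpt2 and Acadl the r with depth was 0.37, 0.13 and 0.10 and with the hepatocyte sum -0.41, -0.31 and -0.22.

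The promoter windows of Cpt1a, Cpt2 and Acadl are shown because these 3 genes varied together. The sequences come from RefSeq on GRCm38.p6 and span 250 bases before to 50 bases after the annotated start, 5′ to 3′ on the strand of the gene. They are chr19:3323051-3323350 (plus strand) for Cpt1a, chr4:107923540-107923839 (minus strand) for Cpt2 and chr1:66863260-66863559 (minus strand) for Acadl, and capitals mark the nuclear receptor core motif AGGTCA, read here on the opposite strand as TGACCT.
Cpt1a: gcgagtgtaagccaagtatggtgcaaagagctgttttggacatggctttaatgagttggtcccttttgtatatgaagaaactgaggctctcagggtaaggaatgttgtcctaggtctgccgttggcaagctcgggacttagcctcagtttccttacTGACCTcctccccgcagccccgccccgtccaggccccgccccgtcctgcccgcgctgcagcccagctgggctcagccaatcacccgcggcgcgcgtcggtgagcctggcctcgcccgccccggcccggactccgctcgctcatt
Cpt2: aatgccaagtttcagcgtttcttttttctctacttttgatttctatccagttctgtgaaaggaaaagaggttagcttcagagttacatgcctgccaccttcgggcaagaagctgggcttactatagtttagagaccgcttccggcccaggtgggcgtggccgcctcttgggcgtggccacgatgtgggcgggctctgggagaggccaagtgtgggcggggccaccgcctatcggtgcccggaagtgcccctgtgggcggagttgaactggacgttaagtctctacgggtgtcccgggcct
Acadl: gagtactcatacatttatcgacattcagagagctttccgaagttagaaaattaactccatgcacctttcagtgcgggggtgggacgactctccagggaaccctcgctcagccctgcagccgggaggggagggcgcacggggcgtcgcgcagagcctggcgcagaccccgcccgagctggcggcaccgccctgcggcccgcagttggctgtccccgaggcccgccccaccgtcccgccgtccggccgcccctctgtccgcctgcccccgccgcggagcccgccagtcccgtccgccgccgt
The core motif was found on either strand in the windows of Cpt1a, at 94 bases before the start, and Acadm, that is in 2 of 8 windows of 7 members (Bdh1 has 2 windows), against 16.3% of all 32851 windows. A direct repeat of this motif with 1 spacer base, the element bound by PPAR and RXR pairs, was searched with up to 2 mismatches and found in 0 of 8 windows, against 3.86% of all windows. The longer TNAAGGTCA, bound by estrogen-related receptors, was found in 0 of 8 windows, against 421 of 32851. Both contain the core motif. A match is a run of letters and not a binding site, and the windows cover only the start of each gene. GC content was 62.3% in the window of Cpt1a, 57.3% in that of Cpt2 and 70.3% in that of Acadl, where the median over all windows was 52.7%.

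In replicate 7 of the control diet Ppara, Cpt2 and Acadl, 3 of 8 members, had their highest value of the group in both populations, and the other 5 did not, with values of 10.7 and 15.1, 42.1 and 54.7, and 42.6 and 47.0 CPM in Lgr5-high and Lgr5-low cells. No other replicate number of either diet had more than 1 member highest in both populations. Of the other pathway genes 10 of 83 (12%) were highest there in both populations, against 3.47% of all genes tested. They were Acsl5, Acadvl, Hadha, Slc16a6, Abcd3, Vnn1, Cd36, Acot1, Acot2 and Mgll. The 2 libraries held 15.4 and 3.09 M counts. Their enterocyte marker sums were 8939 and 22484 CPM, the second the highest of its group, and their smooth muscle and fibroblast sums, 2.74 and 8.28 CPM, were the highest of their groups. The part of these in the pattern was not tested.

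The labels give no sex. Xist, the RNA that silences an X chromosome in female cells, was at or below 8.89 CPM in 10 libraries and at 132 to 329 CPM in the other 18, and the libraries of low Xist were replicates 1 to 3 of the control diet and 1 and 2 of the cystine diet in both populations. This division follows the replicate number, so sex, batch and number cannot be told apart, and libraries of the same number may share an animal. The comparison was made after the data had been seen, in 1 model with a mean for each of the 4 groups. It counted same-numbered libraries of the populations as independent, so its p-values may be too small if these share an animal. Xist-low libraries were also shallower, with a median of 6.46 against 14.5 M counts. Paneth cell markers summed to 15317 to 63122 CPM in Xist-low and 30886 to 151183 CPM in Xist-high libraries, and hepatocyte markers to 1004 to 1725 against 657 to 1395 CPM.

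Between the Xist classes 4 of 8 members passed the test, against 17.1% of all genes tested. Cpt1a fell by 0.95 ± 0.20 on the log2 scale in Xist-low libraries (SE, adjusted p = 0.000567). Its ranges did not overlap in 3 of 4 groups: 18.2 to 37.0 against 37.9 to 83.2 CPM in Lgr5-high control, 12.9 to 16.4 against 22.3 to 48.2 CPM in Lgr5-high cystine and 22.9 to 37.3 against 56.2 to 63.4 CPM in Lgr5-low control libraries. In Lgr5-low cystine cells the 2 Xist-low libraries stood at 5.74 and 54.4 CPM and the others at 39.1 to 58.9 CPM. Each group holds only 2 or 3 Xist-low libraries, so ranges separate easily. The share of all genes without overlap was not counted, and the overlaps given here are descriptions only. Cpt2 fell by 0.65 ± 0.18 (adjusted p = 0.00869) and Acadl by 0.59 ± 0.18 (adjusted p = 0.0215), each without overlap in 2 of 4 groups, Lgr5-high cystine and Lgr5-low control. Acat1 rose by 0.27 ± 0.09 (adjusted p = 0.0274), without overlap in Lgr5-low control cells, at 343 to 493 against 266 to 331 CPM. Acadm, Bdh1, Ppara and Pdk4 did not pass, at -0.0022, -0.43, -0.43 and 1.81 (adjusted p = 0.991, 0.158, 0.414 and 0.402). The median of all genes in this comparison was -0.16, and the 4 directions held relative to it and under RLE scaling, where the median was -0.11.

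With the class means also removed, the correlation of Cpt2 with Acadl was 0.85, and that of Cpt1a with Acadl 0.60 and with Cpt2 0.46. Acat1 then had an r of -0.29 with Cpt1a, -0.13 with Cpt2 and 0.053 with Acadl. Its opposite course was thus weaker with Cpt1a and Cpt2 and no longer seen with Acadl. Of the other pathway genes 9 of 83 (10.8%) rose and 4 of 83 (4.82%) fell in Xist-low libraries, against 8.03% and 9.04% of all genes, and the 13 called make up 15.7%, against 17.1% of all genes. In mitochondrial beta-oxidation 6 of 15 rose and 0 fell. They were Hsd17b10 (0.72 ± 0.10, adjusted p = 1.77e-06), Echs1 (0.56 ± 0.09, adjusted p = 2.03e-05), Hadh (0.46), Acaa2 (0.42), Eci2 (0.41) and Decr1 (0.33), which carry out the steps after the dehydrogenases or prepare unsaturated fatty acids for them. The other 9 of the 15 did not pass, among them Hadha (-0.093, adjusted p = 0.554), Hadhb (0.038, adjusted p = 0.83) and Eci1 (0.18, adjusted p = 0.498). Outside that list, the genes that rose were Plin2, a lipid droplet coat protein (0.44), Mpc1, a subunit of the mitochondrial pyruvate carrier (0.75), and Pdhx, a subunit of the pyruvate dehydrogenase complex (0.57). Those that fell were Oxct1, which starts the use of ketone bodies (-0.76 ± 0.18, adjusted p = 0.00178), the peroxisomal thiolase gene Acaa1a (-1.22), Vnn1, a pantetheinase (-1.11), and the coactivator gene Ncoa1 (-0.84). The median of the 15 beta-oxidation genes was 0.18, against -0.16 over all genes tested, so that Cpt1a and Cpt2 and the 6 called beta-oxidation genes moved in opposite directions.

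These class differences depended on the test and on which libraries were used. Under limma-voom Cpt2 and Acadl no longer passed (adjusted p = 0.0877 and 0.173). Acadl no longer passed without Lgr5-low control replicate 3, Lgr5-high control replicate 1, 5 or 7 or Lgr5-high cystine replicate 2 (adjusted p = 0.052 to 0.0745), nor did Acat1 without Lgr5-high cystine replicate 1 (0.0672). Without the 7 libraries under 5 M counts, 1 of 8 members passed, Cpt1a (-0.64 ± 0.19, adjusted p = 0.0185), while Cpt2, Acadl and Acat1 were at -0.33, -0.30 and 0.20 (adjusted p = 0.21, 0.329 and 0.2). Within Lgr5-high libraries alone Cpt1a was at -1.09 (adjusted p = 0.0219), within Lgr5-low libraries at -0.76 (0.0854), on control diet at -0.94 (0.00548) and on cystine diet at -0.91 (0.15). Of the 13 pathway genes called, 2 passed within Lgr5-high, 10 within Lgr5-low, 8 within control and 4 within cystine libraries, 10 without the shallow libraries and 11 under limma-voom, with 0 changes of sign. Hsd17b10 and Mpc1 passed in each of these settings. Over all genes, calls also fell, from 2132 to 228 within Lgr5-high libraries, so lost calls there are not particular to the pathway genes. For the other subsets the calls over all genes are not set beside these counts. Hadh and Eci2 lost the call in all 4 subsets, and Echs1, Acaa2 and Decr1 in 1 to 3 of them. Acaa1a, Vnn1 and Ncoa1 lost it without the shallow libraries. With 1 library left out, Ncoa1 lost it in 7 cases (without Lgr5-low control replicate 1, 2, 3 or 5, Lgr5-low cystine replicate 1 or Lgr5-high control replicate 1 or 7; adjusted p = 0.0505 to 0.0777). Eci2 lost it in 3 cases (without Lgr5-low control replicate 4 or 6 or Lgr5-high cystine replicate 2; adjusted p = 0.054 to 0.06).

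**Figure D4:**
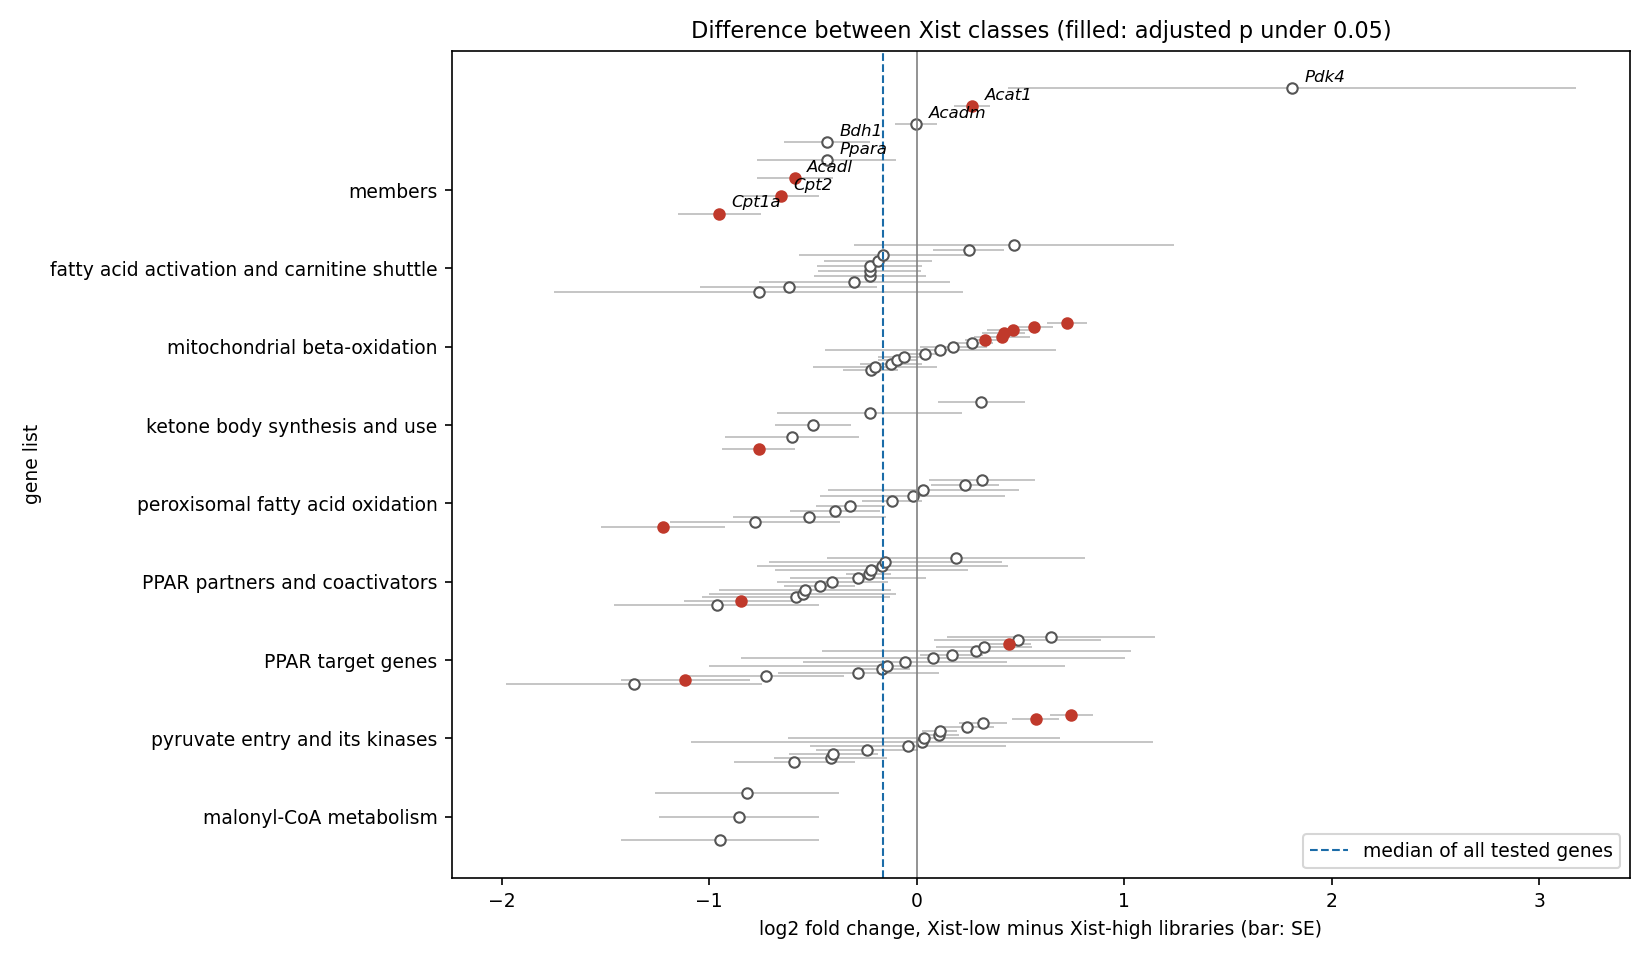
Log2 fold change of Xist-low minus Xist-high libraries for the 8 members and the tested genes of the 8 pathway lists. Points are fitted values, bars are SE, filled points passed at an adjusted p under 0.05, and the dashed line marks the median of all tested genes, -0.16. Cpt1a, Cpt2 and Acadl lie left of it and Acat1 right of it, and the filled points of mitochondrial beta-oxidation all lie to the right.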

How the data were processed

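Per the labels, poly(A)-selected, strand-keeping libraries were made from total RNA. The deposited table holds estimated counts of the authors, rounded to whole numbers, for each gene. The submitters' processing notes name Salmon 1.3.0 and build mm10, and the transcript set is not given in the sources used here. That tool divides reads among similar or overlapping transcripts by a model. Columns were matched to libraries by the labels. Libraries held 2.75 to 21.5 M (mega) counts. Over 84 pairs of libraries within groups, the chi-square per gene was 13.9 to 226, so none was a repeat.

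Genes were tested with edgeR 4.0.16 (R 4.3.3; TMM factors, filterByExpr by group, robust quasi-likelihood fit, a mean per group over 28 libraries), two-sided, with Benjamini-Hochberg adjustment over 12495 genes and a threshold of 0.05. The common biological coefficient of variation was 0.629. CPM use TMM-scaled totals, and deviations use log2 CPM with a prior count of 2. Levels per kilobase divide CPM by merged exon length of GENCODE M21 (GRCm38), which matched 51528 of 54354 identifiers (94.8%). The fit was tested on simulated data for the populations on control diet, with 12082 genes tested. It called 35% of 100 genes changed by 1 on the log2 scale and 72% of 100 changed by 2, with 7 false calls. A gene that differs by 1 on the log2 scale may thus fail the test. Libraries were put in a low class when Xist was at or below 50 CPM.

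Alternatives were RLE factors, DESeq2 1.42.0, limma-voom 3.58.1 with quality weights, no low-count filter, at least 1 CPM in 7 libraries, only the compared groups, a replicate block, an Xist class term, each class alone, no libraries under 5 M counts, and each library left out. The Xist class comparison and its subsets were added after the data had been seen.

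The members and the lists were chosen with earlier results of these data known. Named were the 8 members and Lgr5; some genes of the rule and lists are not reported here. From each pathway list, up to 4 genes of lowest p that passed in either population comparison were named, or else the gene of lowest p. The 2 genes most like each member were also named. Genes named for replicate 7 and for the Xist class were chosen after their values were seen. Replicate numbers were not treated as pairing in the main fit, since not every same-numbered pair of libraries had a correlation of deviations above 0.1. Between populations the median correlation was 0.107 for the same number and -0.044 for other numbers on control diet. On cystine diet these medians were 0.076 and -0.0099, so a shared origin of same-numbered libraries remains possible.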

Additional observations from a re-analysis of the deposited data

Results flagged for a closer look

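Of 32 groups of 7 libraries examined (the 8 members in each group), 6 held 1 library whose gap to the nearest exceeded the 95% limit of Dixon's test on CPM. That limit is passed by chance in about 1 in 20 groups only for normally distributed values. For Pdk4, at 0 in 5 of 7 Lgr5-high cystine and 4 of 7 Lgr5-low control libraries, this rate does not apply. The gap is relative to the range of the group, so it can be small in CPM. Among Lgr5-low control libraries Ppara stood at 15.1 CPM in replicate 7 (next 8.29), Acadm at 166 CPM in replicate 6 (next 135) and Pdk4 at 7.42 CPM in replicate 1 (next 1.06). Among Lgr5-high control libraries Acat1 was lowest in replicate 4, at 330.0 CPM (next 374). Among Lgr5-high cystine libraries Pdk4 stood at 1.49 CPM in replicate 1 (next 0.368). Among Lgr5-low cystine libraries Cpt1a was lowest in replicate 1, at 5.74 CPM (next 39.1), in a library of 4.11 M counts.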

How the results depend on the processing

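Precision was limited by the spread between libraries (common biological coefficient of variation 0.629) and, for Ppara and Pdk4, by counts as low as 3 and 0. Calls of Abcd3 and of members between the Xist classes changed as given above. No member passed under any of the settings in any of the 5 comparisons except 1 member, Acadl, between populations on cystine diet with the Xist class term (-0.83, adjusted p = 0.0379); leaving out each library in turn gave 0 to 0 members. Of 360 values of members under other settings 323 had the same sign and side of the threshold and 36 changed sign, and of 932 values with 1 library left out 894 and 38 did; all sign changes were of differences that did not pass the test, and the cause was not tested. Pdk4 had a value in 8 of 11 other settings and with 23 of 28 libraries left out in turn, since it failed the low-count filter in the rest.

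For the 2 populations on control diet, Bdh1 was at -0.025 under limma-voom and -0.11 in the Xist-low class alone, Acat1 at -0.098 in that class, Cpt1a and Acadl at 0.047 and 0.084 without libraries under 5 M counts, and Pdk4 at 2.73 under limma-voom, 0.88 with the Xist class term and 5.24 in the Xist-high class. On cystine diet, Acadm and Acat1 were at 0.025 and 0.024 under RLE, 0.023 and 0.026 under DESeq2 and 0.23 and 0.16 in the Xist-low class, and Acat1 at 0.17 without shallow libraries. For diet in Lgr5-high cells, Cpt2 was at -0.073 under limma-voom, Cpt2 and Acadl at -0.047 and -0.053 with the class term, Acadl at -0.077 in the Xist-high class, Cpt2, Acadl, Acadm, Acat1 and Bdh1 at -0.35, -0.085, 0.040, 0.15 and 0.25 in the Xist-low class, and Cpt2, Acadl, Acat1 and Bdh1 at -0.30, -0.15, 0.028 and 0.13 without shallow libraries. For diet in Lgr5-low cells, Acat1 was at -0.0069 under RLE, -0.0070 under DESeq2, -0.0052 in the fit of the compared groups alone, -0.00011 under the filter of 1 CPM in 7 libraries and at -0.11 in the Xist-low class, and Cpt1a and Pdk4 at 0.054 and -0.046 without shallow libraries. A replicate block turned 1 member value, Pdk4 between populations on control diet (2.73), and called 0 members in each of the 5 comparisons; the correlation of deviations of same-numbered libraries was 0.0733 to 0.239 between control populations and -0.083 to 0.170 between cystine populations, and 4 of 7 and 3 of 7 Lgr5-high libraries were most like their own number.

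With each library left out in turn, the values that changed sign ranged from -0.31 to 0.043 for Cpt1a and from -0.86 to 2.04 for Pdk4 between populations on control diet, from -0.11 to 0.069 for Acadm and from -0.14 to 0.030 for Acat1 on cystine diet, from -0.11 to 0.26 for Cpt2, from -0.11 to 0.27 for Acadl and from -0.25 to 0.040 for Bdh1 for diet in Lgr5-high cells, and from -0.25 to 0.053 for Cpt1a, from -0.053 to 0.11 for Acat1 and from -0.0038 to 2.90 for Pdk4 for diet in Lgr5-low cells.

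Counts over all genes moved more. Between populations on control diet 225 genes were called, and 31 (Xist-low class alone) to 800 (limma-voom) under other settings and 124 to 456 with a library left out; on cystine diet 330, and 108 to 910 and 169 to 413; for diet in Lgr5-high cells 21, and 0 (without shallow libraries) to 89 (DESeq2) and 7 to 41; for diet in Lgr5-low cells 0, and 0 to 4; for the difference of diet effects 0, and 0 to 5. Between the Xist classes 2132 genes were called, and 228 (Lgr5-high libraries alone) to 2722 (DESeq2). The members called there were 4, and 2 under limma-voom, 1 without shallow libraries, 1 in Lgr5-high libraries, 0 in Lgr5-low libraries (2 of 7 tested members at an unadjusted p under 0.05), 1 on control diet, 0 on cystine diet (3 of 7) and 3 to 4 with a library left out.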
